A study of Mus musculus with 6 samples.

Results

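Integrins are receptors for the extracellular matrix and for other cells, each built from an alpha and a beta chain, and the genes described here encode 10 such chains that osteoclasts and macrophages are known to use. They were taken by symbol, through a reference table of gene names, from an RNA-seq table of 57180 mouse gene identifiers, and all 10 were found: the beta chains Itgb3, Itgb1, Itgb2 and Itgb5 and the alpha chains Itgav, Itgam, Itgax, Itgal, Itga4 and Itga5. The tested cells were wild-type bone marrow-derived macrophages grown for 5 days under osteoclast-inducing conditions with Visomitin, and the controls were the same kind of cells, also wild type and also under those conditions for 5 days, without it. The compound, which also goes by SkQ1, is an antioxidant that a positive charge draws into mitochondria. Each group had 3 libraries, called Visomitin 1 to 3 and control 1 to 3. The labels state neither the dose nor the age or strain of the mice. They also leave unsaid whether libraries of a group came from separate mice or cultures, so the p-values reflect the spread among these libraries alone, and part of it may be technical.

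In macrophages the beta2 chain pairs with the alpha chains M, X and L to form the leukocyte integrins, which bind complement fragments and ICAM proteins. The beta1 chain pairs with many alpha chains, among them alpha4, a receptor for VCAM-1, and alpha5, a receptor for fibronectin. The alphaV chain pairs with beta3, beta5 or beta1, and alphaV with beta3 forms the vitronectin receptor, which binds RGD motifs in osteopontin and vitronectin and is the main integrin of the mature osteoclast. There it organises the actin ring that seals the cell to bone. Macrophage precursors are known to switch from beta5 towards beta3 as they become osteoclasts.

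Expression is given in TPM, a length-corrected share of the transcripts in a library, which keeps no record of sequencing depth, so the depth is unknown. Between 11551 and 11821 genes reached 1 TPM in a library. The cells carried macrophage markers (7 genes, summed level 3672 to 4825 TPM with Visomitin and 4080 to 4319 TPM in controls) and osteoclast markers (8 genes, 2914 to 3499 TPM with Visomitin and 11017 to 11969 TPM in controls). Of the 7 macrophage markers, 2 rose, 0 fell and 5 did not pass limma's test, where 2.08% of all tested genes rose and 5.03% fell. The mannose receptor gene Mrc1 was at 104 ± 8.41 TPM with Visomitin and 67.6 ± 7.04 TPM in controls (SD, n = 3 each, log2 fold change 0.61, adjusted p = 0.012). Mertk, a receptor for the uptake of dying cells, was at 26.03 ± 2.03 TPM with Visomitin and 17.2 ± 1.70 TPM in controls (0.57, adjusted p = 0.022). Mrc1 lost its call without Visomitin 2 (adjusted p = 0.053), and Mertk without Visomitin 2, control 1, control 2 or control 3 (adjusted p up to 0.096) and with no low-level filter (0.059). Of the 5 that did not pass, Cd68 was lower, at 1628 ± 112 TPM with Visomitin and 1870 ± 57.0 TPM in controls (-0.20, adjusted p = 0.16). Fcgr1 was also lower (-0.24, adjusted p = 0.48). Adgre1 (0.23, adjusted p = 0.24), Cd14 (0.17, adjusted p = 0.21) and Csf1r (0.10, adjusted p = 0.76) were higher. All 8 osteoclast markers fell with Visomitin, by 2.63-fold for Mmp9 to 7.70-fold for Dcstamp. B cell and natural killer cell markers were under 1 TPM in every library, and of the other cell types that could bring integrins, stromal cells left the clearest transcripts, which are given below beside the genes they moved with. In bulk RNA, fewer osteoclasts and less of a transcript in each osteoclast cannot be told apart.

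Of the 10 integrin genes, 3 fell with Visomitin, 0 rose and 7 did not pass the test. The test covered the 11753 genes that reached 1 TPM in 3 or more libraries, all 10 integrin genes among them, and was made on the log2(TPM + 1) scale with limma, with p-values adjusted by the Benjamini-Hochberg method over all tested genes and a threshold of 0.05. Among all tested genes 7.1% passed, with 5.03% lower (591 genes) and 2.08% higher (244 genes) with Visomitin. That split depends on the scaling between libraries, with 674 lower and 496 higher after median-ratio scaling and 651 lower and 559 higher after quantile normalization. Libraries of the 2 groups did not overlap for 4 of the 10 integrin genes, 3 lower and 1 higher (Itgam) with Visomitin, whereas 30.4% of all tested genes did not overlap, 18.4% lower and 11.9% higher. The 3 genes that fell were Itgb3, Itgav and Itgax, so that both chains of the vitronectin receptor were lower, together with 1 alpha partner of beta2. The median log2 fold change was -0.02 over the 10 integrin genes and -0.03 over all tested genes. Fold changes on this scale understate the change of low genes.

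The sequences just before and after the transcription start are shown for Itgav and Itgax, which both fell, and for Itgam, which lies next to Itgax on chromosome 7 and did not fall. They are the 250 bases before and the 50 bases after the start, from RefSeq on build GRCm38.p6, whose promoter table matched 7 of the 10 genes; Itgb3, Itgb2 and Itgal were not matched. Capitals mark matches, on either strand, to GAGGAA (a box bound by PU.1, a transcription factor of macrophages and osteoclasts), TGGAAA (an NFAT core) and TGANTCA (an AP-1 site), and no matches overlapped.
Itgav promoter, chr2:83724147-83724446, + strand: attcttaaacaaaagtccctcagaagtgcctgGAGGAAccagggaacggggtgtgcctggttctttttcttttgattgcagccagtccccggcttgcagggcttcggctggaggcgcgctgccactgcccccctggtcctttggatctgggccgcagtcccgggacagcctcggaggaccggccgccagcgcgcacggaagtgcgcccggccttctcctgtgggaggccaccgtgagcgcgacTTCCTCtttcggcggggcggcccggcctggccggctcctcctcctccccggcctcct
Itgax promoter, chr7:128129300-128129599, + strand: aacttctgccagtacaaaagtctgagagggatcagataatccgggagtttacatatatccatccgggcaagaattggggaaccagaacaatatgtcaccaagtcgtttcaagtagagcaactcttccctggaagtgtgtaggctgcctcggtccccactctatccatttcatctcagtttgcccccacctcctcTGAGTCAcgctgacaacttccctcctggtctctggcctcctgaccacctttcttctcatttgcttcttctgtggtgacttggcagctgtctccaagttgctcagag
Itgam promoter, chr7:128062390-128062689, + strand: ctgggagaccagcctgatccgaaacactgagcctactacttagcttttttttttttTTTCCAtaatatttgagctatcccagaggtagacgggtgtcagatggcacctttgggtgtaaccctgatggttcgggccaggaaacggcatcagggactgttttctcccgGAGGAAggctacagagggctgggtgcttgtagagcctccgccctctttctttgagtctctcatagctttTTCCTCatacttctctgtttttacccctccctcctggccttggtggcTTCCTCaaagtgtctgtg

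The Itgav window held 2 GAGGAA boxes and the Itgam window held 3, and 28.3% of 32851 mouse promoter windows of this length hold at least 1. The Itgam window also held 1 TGGAAA match, which 21.4% of windows have. The Itgax window held no match to either, and 1 to TGANTCA, which 7.81% of windows have. The Itgav window was richer in G and C (67.3%) than that of Itgam (50.3%), beside a median of 52.7% over all windows. These matches are letters in a window and show no binding.

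Itgb3, which encodes the beta3 chain (identifier ENSMUSG00000020689), had 10.1, 12.4 and 10.96 TPM with Visomitin, against 48.0, 51.2 and 43.7 TPM in controls. Every Visomitin library lay far below every control library, and the spread within each group was small beside the gap. The means were 11.2 ± 1.18 TPM with Visomitin and 47.6 ± 3.75 TPM in controls (SD, n = 3 each), a 4.004-fold fall (log2 fold change -2.002, SE 0.11, limma adjusted p = 4.75e-05). Among the 11753 tested genes, 35 had a lower log2 fold change than Itgb3. The fall kept its call under all 15 alternative settings, with log2 fold changes of -2.09 to -1.70. The summed osteoclast markers moved with it, as given above, and their part in the Itgb3 values was not tested.

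Itgav, the alpha chain of the vitronectin receptor (ENSMUSG00000027087), had 34.1, 43.4 and 44.2 TPM with Visomitin, against 77.1, 79.0 and 75.8 TPM in controls. The groups did not overlap, and Visomitin 1 was the lowest library. The means were 40.6 ± 5.65 TPM and 77.3 ± 1.59 TPM (Visomitin and control, SD, n = 3 each), a 1.90-fold fall (log2 fold change -0.92, SE 0.11, limma adjusted p = 0.0028). It kept its call under all 15 alternatives. The log2 fold change was -0.92 for Itgav and -2.002 for its partner Itgb3, a difference that was not tested. The ratio of Itgav to Itgb3 was 3.38, 3.49 and 4.03 in the Visomitin libraries and 1.61, 1.54 and 1.73 in the control libraries. Itgav transcripts were 0.331 ± 0.0065 times those of Itgb5 with Visomitin and 0.732 ± 0.047 times in controls (SD, n = 3 each).

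**Figure D1:**
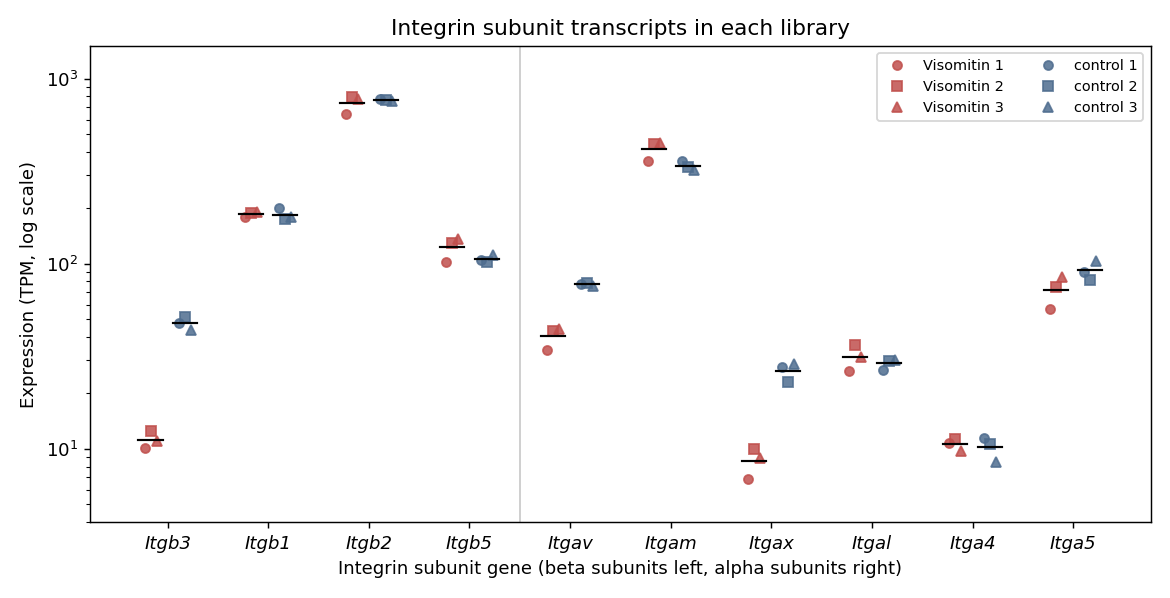
TPM on a log scale for the 10 integrin genes, with a symbol for each library (Visomitin left of control within each gene) and a short line at each group mean. Itgb3, Itgav and Itgax have Visomitin libraries below all control libraries, whereas Itgb1, Itgb2, Itgb5, Itgal, Itga4 and Itga5 overlap between groups.

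The other beta chains were close to their control levels. Itgb1, the common partner of the matrix-binding alpha chains, had 179, 188 and 191 TPM with Visomitin and 199, 174 and 178 TPM in controls, so the groups overlapped. Its log2 fold change was 0.02, with a 95% interval of -0.17 to 0.21 (limma adjusted p = 0.91). Itgb2, the shared chain of the leukocyte integrins, had the highest level of the 10 genes, with 646, 799 and 774 TPM with Visomitin and 774, 762 and 760 TPM in controls. The control libraries lay close together and Visomitin 1 stood below the others. Its log2 fold change was -0.05 (interval -0.27 to 0.16, adjusted p = 0.76). Itgb5, the alternative beta partner of alphaV, had 102, 129 and 136 TPM with Visomitin and 105, 102 and 111 TPM in controls. Its log2 fold change was 0.20 (interval -0.06 to 0.46, adjusted p = 0.33), and without Visomitin 1, the low library, it was 0.32 (adjusted p = 0.036). With array weights it was 0.30 (adjusted p = 0.019). The intervals of all 3 genes leave out a fall of the size seen for Itgb3.

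Set against each other within a library, which removes any scaling of that library, the ratio of beta3 to each of the 3 other beta chains was lower in every Visomitin library than in any control library. The ratio of Itgb3 to Itgb1 was 0.0562, 0.0661 and 0.0575 in the Visomitin libraries and 0.241, 0.295 and 0.246 in the control libraries. The ratio of Itgb3 to Itgb2 was 0.0151 ± 0.00083 with Visomitin and 0.0622 ± 0.0049 in controls, and that of Itgb3 to Itgb5 was 0.0918 ± 0.00999 with Visomitin and 0.452 ± 0.055 in controls (SD, n = 3 each). On the log2(TPM + 1) scale the ratios differed between groups by -2.02 for Itgb1, -1.95 for Itgb2 and -2.20 for Itgb5. The exact two-sided permutation test over the libraries gave p = 0.1 for each of the 3 ratios, also after Benjamini-Hochberg adjustment over the 3, which is the smallest value that 3 against 3 libraries can give. Of the summed transcripts of these 4 beta genes, Itgb3 made up 1.05 ± 0.061% with Visomitin and 4.32 ± 0.36% in controls. Itgb2 made up 69.8 ± 0.97% with Visomitin and 69.4 ± 0.62% in controls, and Itgb5 11.5 ± 0.69% with Visomitin and 9.61 ± 0.48% in controls.

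**Figure D2:**
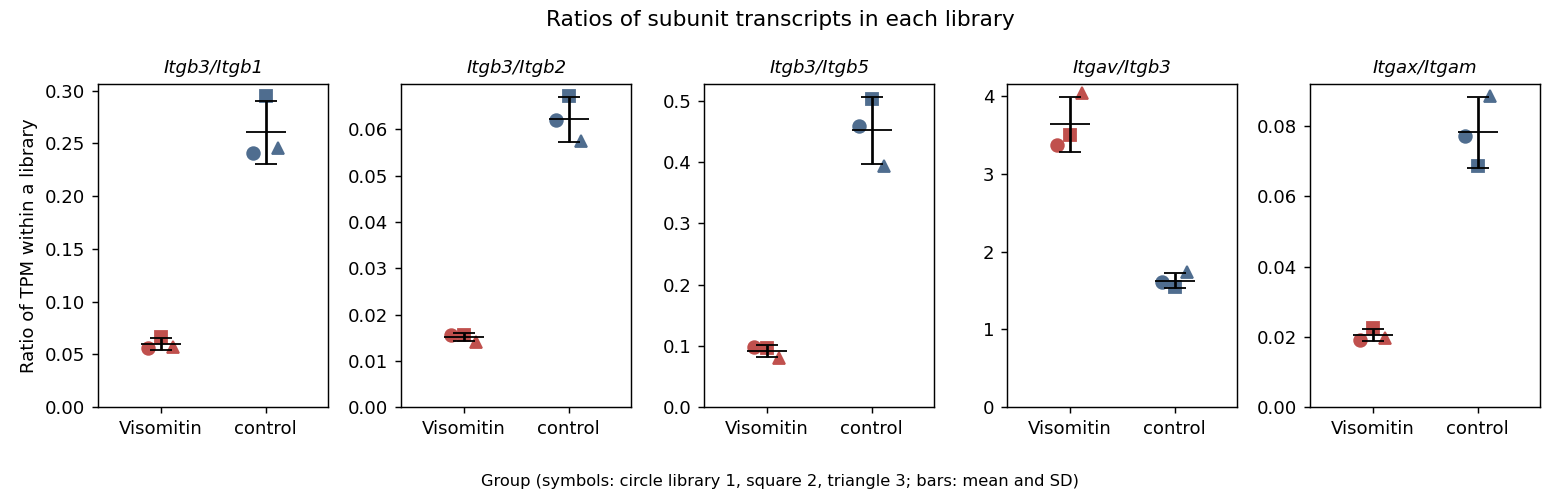
Ratio of TPM within each library for 5 pairs of genes, Visomitin left and control right, each axis starting at 0; symbols are libraries and bars are the mean and SD of 3. Itgb3 lies lower with Visomitin relative to Itgb1, Itgb2 and Itgb5, the ratio of Itgav to Itgb3 is higher (3.38 to 4.03 against 1.54 to 1.73), and the ratio of Itgax to Itgam is lower.

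Of the 3 alpha partners of beta2, 1 fell. Itgax, which encodes CD11c (ENSMUSG00000030789), had 6.88, 10.01 and 8.90 TPM with Visomitin, against 27.6, 22.8 and 28.5 TPM in controls. The groups did not overlap. Itgax averaged 8.597 ± 1.59 TPM with Visomitin and 26.3 ± 3.05 TPM in controls (SD, n = 3 each), a 2.86-fold fall (log2 fold change -1.52, SE 0.15, limma adjusted p = 0.00094), and kept its call under all 15 alternatives. CD11c is also a marker of dendritic cells. Of 6 dendritic cell markers, 4 were under 1 TPM in every library, with Cd209a listed at 0 throughout, Zbtb46 was near 1.6 TPM in both groups, and H2-Aa, an MHC class II gene that macrophages also express, was at 34.2 ± 5.96 TPM with Visomitin and 60.03 ± 12.2 TPM in controls (log2 fold change -0.79, limma adjusted p = 0.028). H2-Aa lost its call under 9 of 15 alternatives (adjusted p up to 0.10), and its part in the Itgax values was not tested.

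Itgam, which encodes CD11b and neighbours Itgax in the genome, had 357, 444 and 449 TPM with Visomitin and 357, 332 and 322 TPM in controls. The lowest Visomitin library was level with the highest control library. The log2 fold change was 0.30 (interval 0.06 to 0.54, limma adjusted p = 0.12), which did not pass. It passed after median-ratio scaling between libraries (0.35, adjusted p = 0.030), with array weights (0.37, adjusted p = 0.0058) and without Visomitin 1 (0.41, adjusted p = 0.016). The ratio of Itgax to Itgam was 0.0192, 0.0226 and 0.0198 in the Visomitin libraries and 0.0773, 0.0687 and 0.0886 in the control libraries. Itgal, which encodes the alpha chain of LFA-1, was at 31.2 ± 5.13 TPM with Visomitin and 28.9 ± 1.86 TPM in controls (log2 fold change 0.10, interval -0.20 to 0.40, adjusted p = 0.68). Lymphocytes also carry LFA-1, and B cell and natural killer cell markers were below 0.5 TPM in sum in each library, with T cell markers at 0.75 to 1.45 TPM with Visomitin and 0.49 to 1.13 TPM in controls.

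Itga4 and Itga5, whose products pair with beta1, did not pass the test. Itga4, which binds VCAM-1, had the lowest level of the 10 genes in controls, with 10.8, 11.3 and 9.65 TPM with Visomitin and 11.4, 10.6 and 8.43 TPM in controls. Its log2 fold change was 0.06 (interval -0.25 to 0.38, limma adjusted p = 0.82), and Cerkl, a gene that overlaps it on the opposite strand, reached at most 5.47 TPM, so reads could be shared where strand was not used in counting. Itga5, the fibronectin-binding chain, had 56.6, 75.0 and 84.2 TPM with Visomitin and 90.4, 81.5 and 104 TPM in controls. Visomitin 3 lay above control 2, so the groups overlapped, and the log2 fold change was -0.36 (interval -0.71 to -0.01, adjusted p = 0.19). The summed level of 7 stromal markers, which include the collagen genes Col1a1, Col1a2 and Col3a1, was 76.9, 117 and 164 TPM with Visomitin and 210, 108 and 316 TPM in controls, in the same order as Itga5 within each group. The fibronectin gene Fn1, named after its values were seen, followed the same order, with 58.2, 94.5 and 140 TPM with Visomitin and 147, 79.1 and 222.1 TPM in controls (log2 fold change -0.58, SE 0.39, adjusted p = 0.41). Itgb5 also took this order within each group. So did Spp1, Vcl and Bcar1, which fell, and Dab2, which did not pass, all given below. The share of all tested genes that took this order was not counted. Visomitin 1 held the lowest value of its group for 63.4% of all tested genes. Of the other stromal markers, Runx2 had 5.13, 4.45 and 4.13 TPM with Visomitin and 3.54, 2.18 and 4.56 TPM in controls (0.36, adjusted p = 0.34). Runx2 thus took the order of the stromal sum in controls and the reverse order with Visomitin. Pdgfra, Sp7 and Alpl did not reach the filter. Stromal cells are known to express alpha5 and fibronectin. The part of stromal transcripts in the values of Itga5, Fn1, Itgb5, Spp1, Vcl, Bcar1 and Dab2 was not tested.

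**Figure D3:**
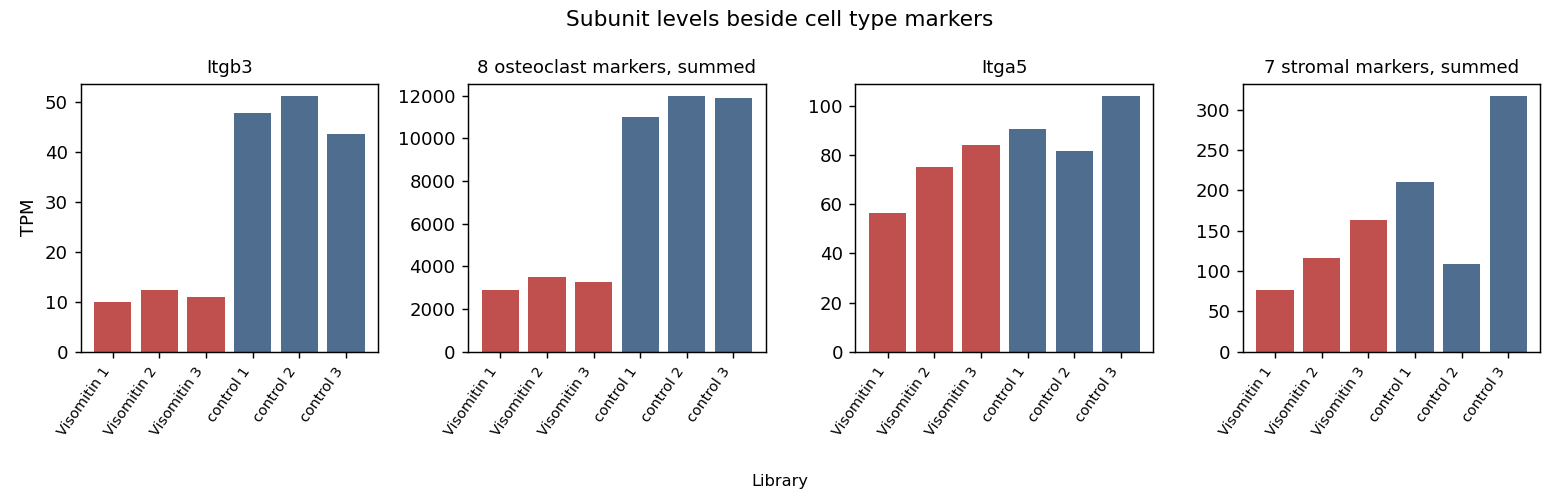
TPM per library for Itgb3, the sum of 8 osteoclast markers, Itga5 and the sum of 7 stromal markers, with Visomitin libraries left of control libraries and each axis starting at 0. The Itgb3 and osteoclast bars step between groups (2914 to 3499 against 11017 to 11969 TPM for the markers), while Itga5 and the stromal sum (76.9 to 164 against 108 to 316 TPM) vary from library to library within a group.

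The order of the 10 genes by level changed at its lower end. With Visomitin the order was Itgb2, Itgam, Itgb1, Itgb5, Itga5, Itgav, Itgal, Itgb3, Itga4 and Itgax. The ranges of Itgav and Itgal overlapped there, as did those of Itgb3 with Itga4 and of Itga4 with Itgax. In controls the order was Itgb2, Itgam, Itgb1, Itgb5, Itga5, Itgav, Itgb3, Itgal, Itgax and Itga4, and only Itgb5 with Itga5 and Itgal with Itgax overlapped among neighbours. Itgb3 thus overlapped the range of Itga4 with Visomitin, and in controls its range was clear of both of its neighbours in the order. Among the 6 alpha genes, Itgav made up 6.99 ± 0.065% of the summed transcripts with Visomitin and 13.5 ± 0.60% in controls, and Itgam 71.9 ± 0.62% with Visomitin and 59.0 ± 2.07% in controls (SD, n = 3 each).

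**Figure D4:**
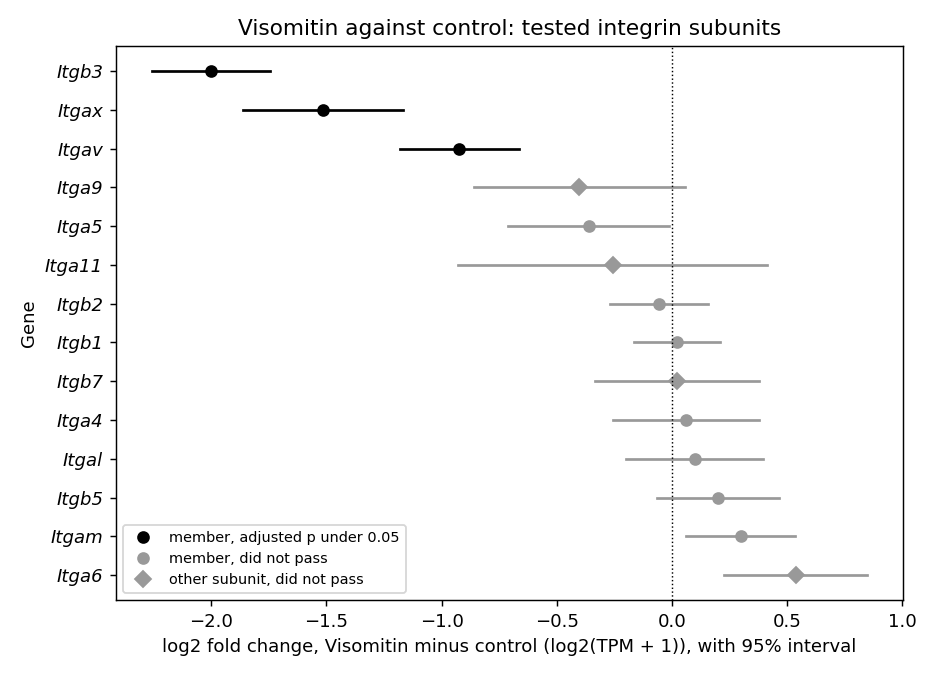
Log2 fold change (Visomitin minus control, log2(TPM + 1) scale) of the 10 integrin genes (circles) and of 4 other integrin subunits that were tested (diamonds), with 95% intervals; black marks an adjusted p under 0.05. Itgb3, Itgax and Itgav lie left of 0 in black, and the intervals of Itgb1, Itgb2, Itgb5, Itgal and Itga4 include 0.

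The genes whose profile over the 6 libraries was most like that of Itgb3 were Slc9b2, Acp5, Oscar, Scin and Ldhb, in that order. Likeness was the root mean square difference of log2(TPM + 1) after each gene's control mean was subtracted, among 7059 named genes with a mean of at least 10 TPM. It was 0.09 for Slc9b2, a sodium-proton exchanger of osteoclasts, 0.11 for Acp5, the tartrate-resistant acid phosphatase, 0.11 for Oscar, a collagen receptor of osteoclasts, 0.11 for Scin, an actin-severing protein, and 0.12 for Ldhb, a lactate dehydrogenase subunit. Slc9b2 had 29.9, 36.4 and 32.7 TPM with Visomitin and 119, 137 and 115 TPM in controls. Among the other 9 of the 10 integrin genes Itgax was the nearest to Itgb3 (0.38), the 55th nearest of all tested genes, and Itgav the next (0.77), the 177th nearest. As the profiles hold only 2 groups of 3 libraries, likeness mostly reflects a similar fold change.

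Of the 16 other integrin subunits, 5 reached the filter, 1 of them (Itga2) through the control libraries alone. Of the other 4, limma called 0 in either direction, with 1 (Itga6) at an unadjusted p under 0.05. That unadjusted threshold was reached by 2862 of the 11753 tested genes. Itga2, a collagen-binding partner of beta1, had 0.53, 0.75 and 0.59 TPM with Visomitin, against 2.47, 2.65 and 1.93 TPM in controls. The groups did not overlap, but these levels are low, and as only control libraries reached 1 TPM the filter picked the gene where it was high, so no test is given for it. Itga6, a laminin receptor chain, had 28.2, 31.3 and 40.5 TPM with Visomitin and 23.3, 22.2 and 21.6 TPM in controls. The groups did not overlap, but the log2 fold change of 0.54 just missed the threshold (SE 0.14, adjusted p = 0.051), and it passed under 6 of 15 alternatives, among them median-ratio scaling (adjusted p = 0.016), the fit without Visomitin 1 (0.031) and the fit with a replicate block (0.046). Itgb7, which pairs with alpha4, was at 43.02 ± 7.997 TPM with Visomitin and 42.0 ± 5.38 TPM in controls (0.02, adjusted p = 0.94). Itga9 (-0.40, adjusted p = 0.27) and Itga11 (-0.26, adjusted p = 0.64) were below 6 TPM in every library. The remaining 11 subunits did not reach the filter. They include Itga2b, the platelet partner of beta3, at 0.04, 0.44 and 0.33 TPM with Visomitin and 0.02, 0.12 and 0.28 TPM in controls. Of 5 megakaryocyte and platelet markers, 4 were under 1 TPM in every library, with Gp9 listed at 0 throughout. The fifth, Ppbp, had 3.31, 3.39 and 2.25 TPM with Visomitin and 2.79, 2.69 and 2.66 TPM in controls.

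Among genes of integrin signalling, 18 were tested, of which 5 fell and 1 rose, and the other 12 missed the threshold (median log2 change -0.07). Of all tested genes, 5.03% fell and 2.08% rose. Only 2 signalling genes fell when Visomitin 2, control 1 or control 3 was left out or low genes were kept in the test. The count was 3 when Visomitin 1 was left out. Src, the tyrosine kinase that acts downstream of the vitronectin receptor in osteoclasts, had 45.5, 62.3 and 56.3 TPM with Visomitin, against 96.3, 103 and 92.9 TPM in controls (log2 fold change -0.83, SE 0.12, limma adjusted p = 0.0063). Rac2, a small GTPase of blood cells, was at 125 ± 9.24 TPM with Visomitin and 205 ± 16.7 TPM in controls (-0.71, SE 0.09, adjusted p = 0.0041). Both kept their call under all 15 alternatives. Bcar1, which encodes the adaptor p130Cas, was at 3.16 ± 0.72 TPM with Visomitin and 7.13 ± 1.81 TPM in controls (-0.96, adjusted p = 0.027). Paxillin (Pxn, -0.45, adjusted p = 0.030) and vinculin (Vcl, -0.65, adjusted p = 0.030), 2 adhesion proteins named after their values were seen, also fell. Bcar1, Pxn and Vcl each lost their call in 4 of the 6 fits that left out a library, with adjusted p of up to 0.089, 0.11 and 0.10 in turn. Within each group Bcar1 and Vcl took the order of the stromal sum given above, and the part of stromal transcripts was not tested.

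Fyn, a Src-family kinase, rose to 27.0 ± 0.75 TPM with Visomitin, against 19.2 ± 0.54 TPM in controls (log2 fold change 0.47, SE 0.09, limma adjusted p = 0.020). The call held without Visomitin 1 and was lost in each of the other 5 fits that left out a library, with adjusted p up to 0.078. Syk, the kinase that links integrins to ITAM adaptors, did not pass (0.15, interval -0.08 to 0.38, adjusted p = 0.40; 0.24 and 0.047 with array weights), nor did Ptk2b, which encodes PYK2 (-0.13, interval -0.38 to 0.11, adjusted p = 0.48), 2 genes named after their values were seen.

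Integrin activators and cytoplasmic adaptors showed no call. Of 17 tested, 0 rose, 0 fell and 17 did not pass limma's test, beside 7.1% of all tested genes that passed. An unadjusted p under 0.05 was reached by 4 of the 17, and by 2862 of the 11753 tested genes. The median log2 change of these 17 was 0.04. The lowest p-values belonged to Cyth1, a cytohesin (0.32, adjusted p = 0.064), Fyb, an adaptor of leukocyte integrin activation (0.26, adjusted p = 0.096), Rassf5, a RAP1 effector (0.31, adjusted p = 0.13), and Skap2, an adaptor (-0.19, adjusted p = 0.20). Cyth1, Fyb and Rassf5 passed after median-ratio scaling (adjusted p of 0.030, 0.030 and 0.038 in turn) and without Visomitin 1. They also passed after quantile normalization and with array weights. Talin (Tln1) was at 198 ± 31.0 TPM with Visomitin and 233 ± 2.52 TPM in controls (-0.25, adjusted p = 0.24), and kindlin-3 (Fermt3) at 234 ± 22.4 TPM with Visomitin and 241 ± 4.84 TPM in controls (-0.05, adjusted p = 0.77; 0.01 after quantile normalization). Both proteins bind beta chain tails to switch integrins on, and these 2 genes were named after their values were seen.

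Among 14 integrin ligands, 11 were tested, and 2 fell, 1 rose and 8 missed the threshold (median log2 change -0.06). The shares over all tested genes were 5.03% that fell and 2.08% that rose. Spp1, which encodes osteopontin, a ligand of the vitronectin receptor, had 370, 419 and 429 TPM with Visomitin, against 906, 772 and 999 TPM in controls. The groups did not overlap, and the fall was 2.19-fold (log2 fold change -1.13, SE 0.11, limma adjusted p = 0.00083). Within each group Spp1 took the order of the stromal sum given above, and the part of stromal transcripts was not tested. Mfge8, a secreted RGD protein that bridges dying cells to alphaV integrins, was at 35.2 ± 6.47 TPM with Visomitin and 90.0 ± 18.9 TPM in controls (-1.33, SE 0.18, adjusted p = 0.0041). F11r, which encodes JAM-A, a ligand of LFA-1, rose to 5.36 ± 0.64 TPM with Visomitin, against 2.76 ± 0.39 TPM in controls (0.76, SE 0.15, adjusted p = 0.023). Spp1 and Mfge8 kept their calls under all 15 alternatives. F11r lost its call without control 1, control 3 or Visomitin 3 (adjusted p up to 0.083) and with no low-level filter (0.091). It was too low to be tested under the filter on a mean of at least 5 TPM. Icam2 did not pass (0.34, adjusted p = 0.21), though it did with array weights (0.50, adjusted p = 0.021). The vitronectin gene Vtn was listed at 0 in all libraries.

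Of 7 tested integrin-associated membrane proteins and 9 tested genes of integrin recycling, 0 passed limma's test in either direction. At an unadjusted p under 0.05 there were 2 of the membrane proteins and 1 of the recycling genes, beside 2862 of the 11753 tested genes. The lowest p-values were those of the tetraspanins Cd9 (-0.24, adjusted p = 0.10), Cd151 (-0.25, adjusted p = 0.15) and Cd63 (-0.16, adjusted p = 0.36), of Slc3a2, the CD98 heavy chain (0.15, adjusted p = 0.54), and of the endocytic and sorting genes Numb (-0.29, adjusted p = 0.14), Snx17 (-0.17, adjusted p = 0.26), Rab11a (-0.16, adjusted p = 0.28) and Dab2 (-0.26, adjusted p = 0.40). Without Visomitin 1, Cd63 passed (-0.25, adjusted p = 0.040). With array weights Cd63 (-0.22, adjusted p = 0.029) and Cd9 (-0.24, adjusted p = 0.019) passed.

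**Figure D5:**
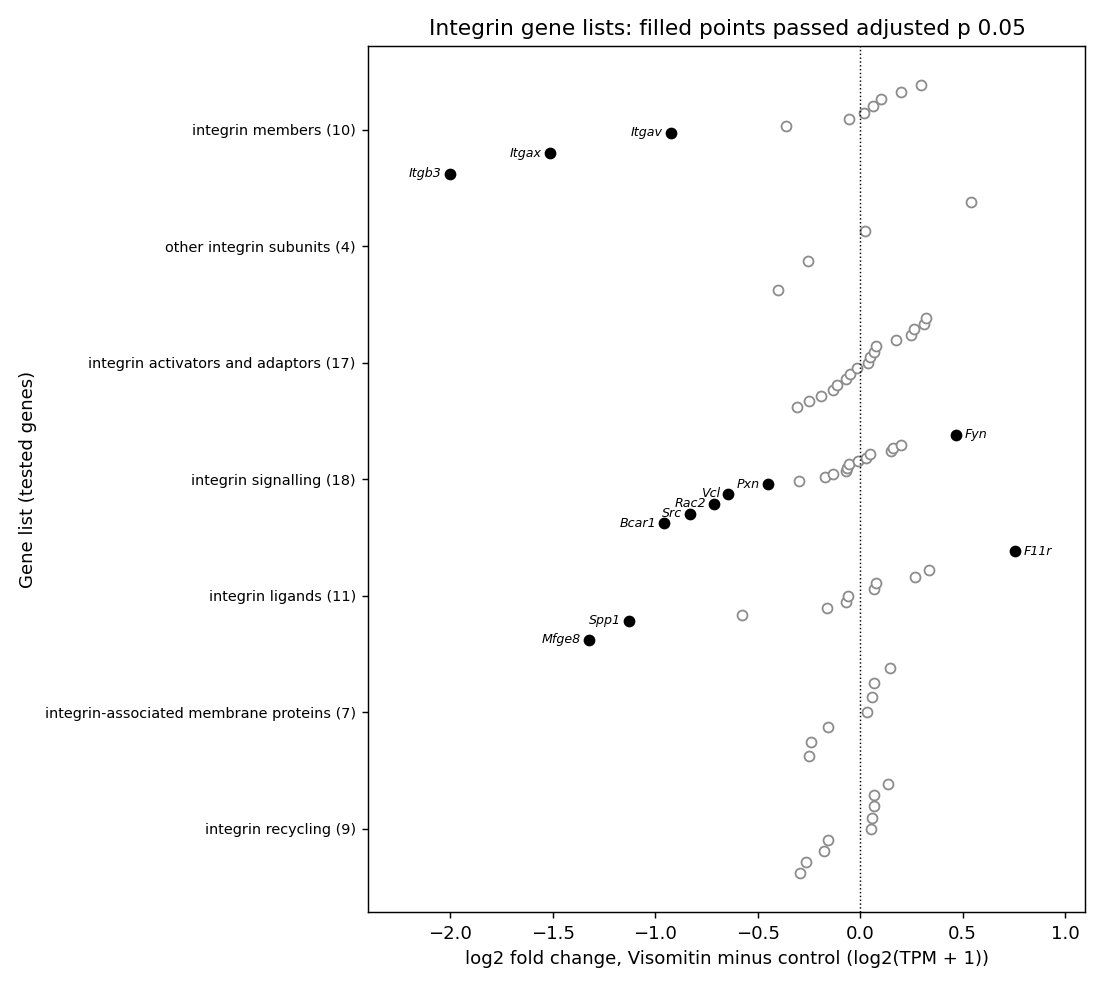
Log2 fold change (Visomitin minus control, log2(TPM + 1) scale) of the tested genes in 7 integrin gene lists, without Itga2, a point for each gene; filled, named points passed an adjusted p of 0.05. Filled points are 3 of 10 among the integrin genes described here, 0 of 4 other subunits, 6 of 18 signalling genes and 3 of 11 ligands, with 0 in the remaining 3 lists. Of all tested genes, 7.1% passed.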

How the data were processed

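Per the labels' protocols, TRIzol-extracted and DNase-treated RNA went into a stranded mRNA kit. The submitters' processing notes name fastp, HISAT2 and StringTie; for versions, genome build, annotation and strand setting nothing is stated. The authors deposited TPM per gene for each library, and these TPM were used unchanged. Symbols were found for 51884 of 57180 identifiers; 34857 identifiers are at 0 in all libraries. The fit used limma 3.58.1 (R 4.3.3, statmod 1.5.0) with a mean-variance trend, a pseudocount of 1 TPM and group as the only term (4 residual degrees of freedom). Intervals are 95% limma intervals. The fit was tested on simulated data.

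The members, lists and tests were chosen with earlier results of these data known. Named genes are all 10 members, the tested other subunits, the 4 lowest p-values of each other list and the 5 profiles most like Itgb3; any other is marked in the text as picked with its values known, as were the marker genes given by name, Vtn and Itga2b. Itga2, which reached the filter through control libraries alone, is given without a test. Alternatives were 2 pseudocounts, 2 filters, 2 scalings, no trend, array weights, a replicate block and leaving out each library. No columns were left over and no pair of libraries shared over 0.391% of tested values.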

Additional observations from a re-analysis of the deposited data

How the results depend on the processing

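The falls of Itgb3, Itgav and Itgax were called under all 15 alternatives. Of 150 values of the 10 integrin genes under these, 139 kept their direction and side of the threshold, 0 lost a call, 5 gained one and 6 changed sign, all of the last with calls in neither fit. Itgb2 was 0.0059 after quantile normalization and 0.039 with array weights, Itga11 was 0.051 with array weights, and Fermt3 was 0.013 after quantile normalization and 0.041 with array weights. Some genes changed sign in 1 or more of the fits that left out a library. Over all such fits their values ranged from -0.017 to 0.080 for Itgb1, -0.11 to 0.040 for Itgb2 and -0.014 to 0.22 for Itgal. The ranges were -0.053 to 0.15 for Itga4, -0.54 to 0.010 for Itga11, -0.084 to 0.18 for Itgb7 and -0.12 to 0.023 for Fermt3. The count of integrin genes that rose was 1 after median-ratio scaling, 2 with array weights and 0 to 2 with a library left out. Over all genes, 591 fell and 244 rose. With no filter on low values 308 fell and 73 rose, and with array weights 1572 and 1263. Median-ratio scaling gave 496 that rose and quantile normalization 559, and with a library left out 232 to 577 fell and 54 to 411 rose. The cause was not tested; fits that leave a library out hold fewer samples. The log2 ratio of Itgb3 to the other beta chains differed by -2.30 to -1.65 over 8 alternatives for Itgb1, Itgb2 and Itgb5. Same-numbered libraries had residual correlations of 0.05, 0.02 and 0.17. With 3 libraries in a group, these values cannot settle whether the same-numbered libraries were paired. With the replicate block 799 genes fell and 308 rose, 3 integrin genes fell, and among named genes the Itga6 call was gained (adjusted p = 0.046). TPM keep no depth, so counting error is unknown.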

Other observations

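Within the Visomitin group, Visomitin 1 held the lowest value for 9 of the 10 integrin genes, all but Itga4. It held the lowest value of its group for 63.4% of all tested genes. After median-ratio scaling it was the lowest for 7 of the 10, and the share of all tested genes was not counted after that scaling.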
